A study of Homo sapiens with 4 samples.

Results

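The genes described here were the 35 human nuclear receptor genes other than the retinoic acid and retinoid X receptors, taken by symbol from a table of 60671 genes. Each of the 35 symbols matched 1 row of the table. Nuclear receptors are transcription factors that carry a zinc-finger DNA-binding domain and, in most members, a pocket for a small fat-soluble ligand such as a thyroid hormone, a steroid, an oxysterol or a fatty acid. Many of them bind DNA as a pair with a retinoid X receptor, the steroid receptors bind as pairs of the same receptor and wait on chaperones for hormone, and several orphan receptors, such as the NR4A family, act without a known natural ligand. In cells of the sympathetic lineage, from which neuroblastoma arises, members of this family take part in differentiation, in the response to stress hormones and in the circadian clock.

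RNA was sequenced from SK-N-BE(2), an established human neuroblastoma cell line with MYCN amplification. The control cells expressed a non-targeting hairpin (shNC) and the knockdown cells a hairpin directed at METTL14 (shMETTL14), which encodes the RNA-binding partner of METTL3 in the enzyme complex that writes N6-methyladenosine (m6A). Groups comprised 2 libraries each, and the labels gave no other allele or agent that set them apart. The comparison asked how the transcriptome of these cells differed when METTL14 was knocked down.

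By the study's methods, hairpins were delivered with the lentiviral vector pLKO.1 and infected cells of both groups were selected with puromycin, so each group stood for a stable selected line. The labels did not give which hairpin against METTL14 was sequenced, nor whether replicates came from separate cultures. The p-values therefore measured only the spread between these libraries, which may be technical, and an effect of the hairpin other than on METTL14 cannot be told apart from the knockdown.

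Between 18925786 and 19886214 reads per library were counted in genes. METTL14 had 753 and 754 counts in the shNC libraries and 303 and 321 in the shMETTL14 libraries, a log2 fold change of -1.26 (SE 0.0832, edgeR adjusted p = 3.6e-11). All 10 markers of noradrenergic neuroblastoma were abundant enough to test, with a summed level of 5050 and 4990 CPM (counts scaled to library size) in shNC and 5200 and 5270 in shMETTL14. MYCN, amplified in this line, made up 2640 and 2600 CPM of that sum in shNC and 3150 and 3190 in shMETTL14, and the other 9 markers summed to 2420 and 2400 CPM in shNC and to 2050 and 2080 in shMETTL14. Of the 10, 9 were called, 2 higher and 7 lower, among them DBH, which makes noradrenaline, at -0.79. The 12 markers of other cell types summed to 61.4 and 62.1 CPM in shNC and 52.9 and 55.3 in shMETTL14, most of it from DCN (741 and 719 against 710 and 705 counts). Of the 9 that were tested, 1 was called higher and 3 lower. COL1A2 was higher, at 1.83, with 2 and 6 counts in shNC and 11 and 18 in shMETTL14. It was abundant enough to test only through shMETTL14, so it had to come out higher. COL1A1 (-0.48), EPCAM (-0.72) and VWF (-1.34) were lower. DESeq2 called 0 of these markers, with 3 at an unadjusted p under 0.05. None of the 12 was at 0 in all 4 libraries. ALB, CD3E and PECAM1 had at most 4 counts in a library and PTPRC had 29 to 40. What part these markers had in the results was not tested.

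The receptors can be sorted into classes by the P-box, a short stretch at the foot of the first zinc finger that reads the half-site in DNA. The coding sequence of this stretch was found in 34 of the 35 genes. The exception was NR0B1 (DAX1), an orphan receptor known to lack the zinc fingers. The P-box sequences of 7 receptors are shown because they include the 5 members called at least 2-fold with ample counts (VDR, with at most 14 counts in a library, is not shown) and stand for different DNA-reading classes. They are coding-strand bases, 5′ to 3′, from GENCODE 29 on GRCh38. Capitals mark codons 2, 3 and 6 of the 6, which take part in the choice of half-site.
PPARA: tgtGAAGGCtgcaagGGC
PPARG: tgtGAAGGAtgcaagGGT
RORB: tgtGAAGGCtgcaagGGA
NR4A2: tgtGAGGGCtgcaaaGGC
NR2F6: tgcGAGGGCtgcaagAGC
ESRRG: tgtGAAGCCtgcaagGCA
NR3C1: tgtGGAAGCtgtaaaGTT
These 18 bases lie on the plus strand in PPARA (chr22:46215319-46218265, split between exons 4 and 5), PPARG (chr3:12381477-12392616, exons 3 and 4) and RORB (chr9:74630353-74634633, exons 2 and 3). They lie on the minus strand within 1 exon in NR4A2 (chr2:156329332-156329349, exon 3), NR2F6 (chr19:17244987-17245004, exon 1), ESRRG (chr1:216677098-216677115, exon 4) and NR3C1 (chr5:143314024-143314041, exon 3). An exon junction fell inside the P-box in 11 of the 34 genes. PPARA, PPARG, RORB and NR4A2 shared 1 class despite synonymous differences between their codons, whereas NR3C1 had its own pattern, which it shared with the other receptors for 3-ketosteroids.

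Of the 35 receptors, 24 were abundant enough to test and 16 of these were called at an adjusted p under 0.05, 8 higher and 8 lower in shMETTL14. Across the table, 52.5% of 16309 tested genes were called, 27.2% higher and 25.3% lower, against 66.7% of the tested receptors, 33.3% in each direction. Expression did not overlap between groups for 21 of the 24 receptors (87.5%), beside 75.5% of all genes tested. No test of the family against other genes was made. The number called at least 2-fold was 6 (25%), 3 in each direction, where 8.79% of all tested genes passed that limit. Since receptors that passed the abundance filter only through 1 group had to differ, the shares describe the tested genes alone. VDR passed it only through shNC, with 13 and 14 counts there against 7 and 1 in shMETTL14. It is counted among the 8 called lower and the 3 at least 2-fold lower. The median log2 fold change was 0.06 over the 24 receptors and -0.001 over all tested genes, and the median size without sign was 0.46 against 0.30.

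**Figure D1:**
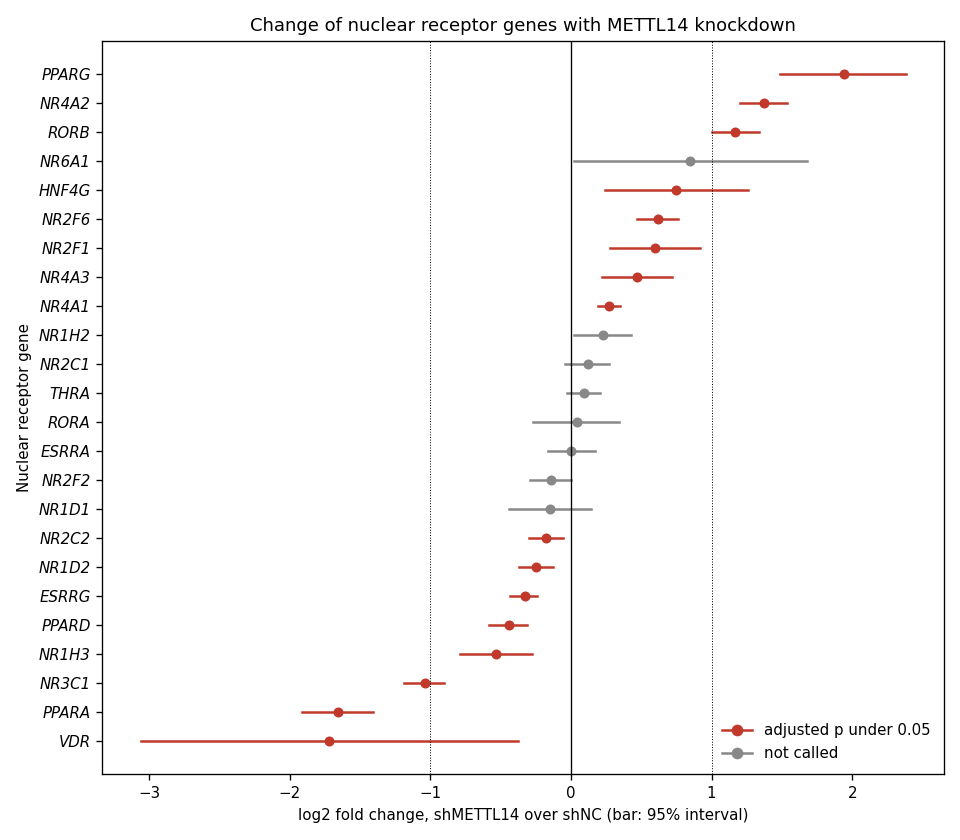
Each point is the log2 fold change of 1 tested receptor, shMETTL14 over shNC, on the horizontal axis, with its 95% interval as a bar, and receptors are ordered by it on the vertical axis. Red marks an adjusted p under 0.05 and dotted lines mark a 2-fold change. PPARG (1.94), NR4A2 (1.37) and RORB (1.17) lie past the right line and NR3C1 (-1.04), PPARA (-1.66) and VDR (-1.72) past the left one, with the widest bar at VDR.

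The peroxisome proliferator-activated receptors, which respond to fatty acids, moved in different directions. PPARA and PPARD fell and PPARG rose. PPARA (ENSG00000186951, chr22:46150521-46243756, plus strand), which drives fatty acid oxidation, had 386 and 365 counts in the shNC libraries and 129 and 107 in the shMETTL14 libraries. Both knockdown libraries lay well below both controls. Its level was 19.2 ± 0.216 CPM (SD, n = 2) in shNC and 6.07 ± 0.727 in shMETTL14, which was 3.16-fold lower. On the log2 scale it changed by -1.66 (SE 0.12, 95% interval -1.91 to -1.41, edgeR adjusted p = 1.6e-10).

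PPARG (ENSG00000132170, chr3:12287368-12434356, plus strand), the receptor that drives fat cell formation, had only 31 and 38 counts in shNC and rose to 121 and 142 in shMETTL14. The groups were far apart, at 1.77 ± 0.303 and 6.78 ± 0.847 CPM (SD, n = 2). The increase was 3.83-fold, or 1.94 on the log2 scale (SE 0.213, 95% interval 1.49 to 2.38, edgeR adjusted p = 1.1e-07). PPARD, which is expressed in most tissues and also governs fatty acid use, had 1043 and 969 counts in shNC and 773 and 696 in shMETTL14. Its groups did not overlap, with a log2 fold change of -0.44 (SE 0.0667, edgeR adjusted p = 7.9e-06). Per kilobase of exon, the level of PPARD stayed the highest of the PPAR genes in both groups, at 11.5 and 8.49 CPM per kb. In the same unit PPARA stood at 1.45 and PPARG at 0.39 in shNC, and at 0.459 and 1.49 in shMETTL14, so their order was exchanged.

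The RORs activate, and the REV-ERBs repress, the same kind of clock gene element. RORB (ENSG00000198963, chr9:74497365-74693177, plus strand), known from retina and brain, had 383 and 436 counts in shNC and 933 and 900 in shMETTL14. Its levels of 21.0 ± 2.51 and 47.2 ± 0.627 CPM (SD, n = 2) did not overlap. RORB rose 2.25-fold, by a log2 fold change of 1.17 (SE 0.082, 95% interval 1.00 to 1.34, edgeR adjusted p = 1e-10). RORA, its relative, had 138 and 136 counts in shNC and 130 and 149 in shMETTL14. Those groups overlapped, and the difference was 0.04 on the log2 scale with an interval of -0.27 to 0.34. RORA shares exon sequence with RORA-AS1 and other noncoding genes on the opposite strand.

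NR1D2 (REV-ERB beta) had 1241 and 1258 counts in shNC and 1052 and 1034 in shMETTL14. It fell by a small and well separated amount, with a log2 fold change of -0.25 (SE 0.0566, edgeR adjusted p = 0.00075). NR1D1 (REV-ERB alpha) had 161 and 154 counts in shNC and 141 in each shMETTL14 library. NR1D1 did not pass the test, with a log2 fold change of -0.15 (interval -0.44 to 0.14). It shares exon sequence with THRA on the opposite strand, and since the strand setting of the counting was not stated, reads of the pair may have been lost or exchanged.

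THRA, the thyroid hormone receptor alpha gene, had 1278 and 1139 counts in shNC and 1270 and 1285 in shMETTL14. Its log2 fold change of 0.09 (interval -0.03 to 0.21) did not pass the test (edgeR adjusted p = 0.18). THRB, the other thyroid hormone receptor gene, had at most 2 counts in a library.

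Among receptors for sterols, NR1H3 (liver X receptor alpha) had 262 and 234 counts in shNC and 188 and 152 in shMETTL14. Its levels, 12.7 ± 0.654 and 8.75 ± 1.20 CPM (SD, n = 2), were apart, and it fell by 0.53 on the log2 scale (SE 0.125, edgeR adjusted p = 0.0011). NR1H3 overlaps the coding gene ACP2 on the opposite strand. NR1H2 (liver X receptor beta) had 291 and 280 counts in shNC and 329 and 335 in shMETTL14. Both knockdown libraries were above the controls, but the log2 fold change of 0.23 (interval 0.02 to 0.43) missed the threshold (edgeR adjusted p = 0.056). VDR, the vitamin D receptor, which overlaps the noncoding gene AC121338.1 on the opposite strand, was near the limit of detection, with 13 and 14 counts in shNC and 7 and 1 in shMETTL14. Its log2 fold change of -1.72 (interval -3.06 to -0.38, edgeR adjusted p = 0.03) rested on the shMETTL14 library with 1 count. Without that library it was -0.93 (edgeR adjusted p = 0.397), and without either shNC library, with no abundance filter, or with DESeq2, the call was also lost.

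**Figure D2:**
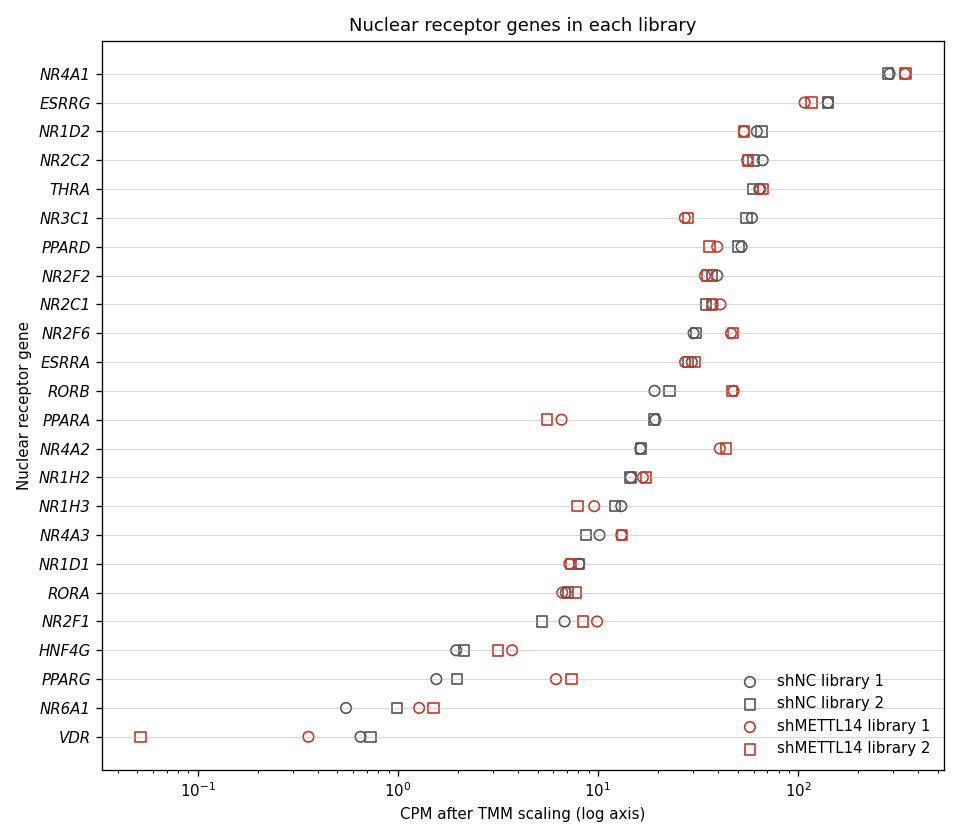
Each row is 1 tested receptor and each mark 1 library, placed by its level in CPM after TMM scaling on a log axis. Grey marks are shNC and red marks shMETTL14, circles library 1 and squares library 2. NR4A1 is at 282 to 345 CPM, VDR lies at the other end between 0.052 and 0.731 CPM, and red and grey marks are far apart for PPARA, PPARG, NR4A2, RORB and NR3C1.

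The NR4A genes are immediate early genes whose products act without a known natural ligand. All 3 rose. NR4A2 (NURR1; ENSG00000153234, chr2:156324432-156342348, minus strand), which is needed for dopaminergic neurons, had 325 and 314 counts in shNC and 797 and 842 in shMETTL14. The 2 controls were nearly equal and both knockdown libraries were far above them, at 16.4 ± 0.0652 and 42.2 ± 2.15 CPM (SD, n = 2). The increase was 2.58-fold, or 1.37 on the log2 scale (SE 0.0816, 95% interval 1.20 to 1.54, edgeR adjusted p = 7.4e-12).

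NR4A1 (NUR77), already the most abundant receptor per kilobase in shNC at 39.0 CPM per kb, had 5724 and 5409 counts there and 6722 and 6646 in shMETTL14. It rose by a smaller step, 1.21-fold, with a log2 fold change of 0.27 (SE 0.0385, edgeR adjusted p = 3.4e-06). An antisense RNA gene, AC025259.3, overlaps it. NR4A3 (NOR1) had 204 and 167 counts in shNC and 256 and 255 in shMETTL14. The groups did not overlap, with a log2 fold change of 0.47 (SE 0.119, edgeR adjusted p = 0.0021), but DESeq2 did not call it (adjusted p = 0.0518). Differences between the fold changes of the NR4A genes were not tested.

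NR3C1 (ENSG00000113580, chr5:143277931-143435512, minus strand) encodes the glucocorticoid receptor. It had 1174 and 1058 counts in shNC and 532 and 544 in shMETTL14. Both knockdown libraries stood near 48.6% of the control level, at 27.7 ± 0.775 CPM against 57.1 ± 2.58 (SD, n = 2). On the log2 scale it changed by -1.04 (SE 0.0688, 95% interval -1.19 to -0.90, edgeR adjusted p = 3.7e-11). The mineralocorticoid receptor gene NR3C2 had 0 and 4 counts in each group, and the progesterone receptor gene PGR had at most 1 count, so NR3C1 was the only member of this class that could be tested.

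Of the estrogen-related receptors, which drive mitochondrial genes, ESRRG was the second receptor per kilobase in shNC, at 12.9 CPM per kb. It had 2811 and 2708 counts in shNC and 2112 and 2244 in shMETTL14. The groups were apart and ESRRG fell, with a log2 fold change of -0.33 (SE 0.0465, edgeR adjusted p = 3.2e-06). ESRRA had 587 and 542 counts in shNC and 535 and 589 in shMETTL14. These overlapped, and the interval of its log2 fold change ran from -0.16 to 0.17. ESRRA shares exon sequence with the coding gene TRMT112 on the opposite strand. ESRRB had 7 and 1 counts in shNC and 0 in both shMETTL14 libraries, too few to test.

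The COUP-TF genes encode orphan receptors of neural crest and nervous system development. NR2F6 had 600 and 594 counts in shNC and 906 and 912 in shMETTL14. With close replicates on both sides it rose 1.53-fold, by a log2 fold change of 0.62 (SE 0.0692, edgeR adjusted p = 1.5e-07). NR2F6 shares exon sequence with AC010646.1 on its own strand, so reads that fit both may have been lost. NR2F1 had 136 and 101 counts in shNC and 194 and 162 in shMETTL14, with a log2 fold change of 0.60 (SE 0.154, edgeR adjusted p = 0.0025). Its groups did not overlap, DESeq2 gave an adjusted p of 0.0503, and it shares exon sequence with the antisense gene NR2F1-AS1. NR2F2 had 788 and 714 counts in shNC and 672 and 677 in shMETTL14, a log2 fold change of -0.14 (interval -0.29 to 0.00) that missed the threshold (edgeR adjusted p = 0.095) and passed it when libraries were scaled by the upper quartile or by size alone.

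HNF4G, of a family best known from liver and gut, had 39 and 41 counts in shNC and 73 and 61 in shMETTL14. Its log2 fold change of 0.75 (SE 0.245, edgeR adjusted p = 0.014) lost its call with DESeq2 (adjusted p = 0.142), without shNC library 1 (edgeR adjusted p = 0.068) and without shMETTL14 library 1 (edgeR adjusted p = 0.104). The testicular receptors NR2C1 and NR2C2, orphan receptors that bind direct repeats, had small changes. NR2C2 had 1330 and 1151 counts in shNC and 1091 and 1082 in shMETTL14, a log2 fold change of -0.18 (edgeR adjusted p = 0.014). Its call was lost with DESeq2 (adjusted p = 0.153), without shNC library 1 (edgeR adjusted p = 0.201) and without either shMETTL14 library, and it overlaps the coding gene MRPS25. NR2C1 had 747 and 664 counts in shNC and 803 and 718 in shMETTL14, and its groups overlapped. NR6A1, a germ cell and embryonic receptor, had 11 and 19 counts in shNC and 25 and 29 in shMETTL14, with a log2 fold change of 0.85 (interval 0.02 to 1.68) that did not pass the test (edgeR adjusted p = 0.08).

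The other 11 receptors were too scarce to test. NR1H4 (the bile acid receptor), HNF4A, NR2E1 (TLX) and ESR1 (estrogen receptor alpha) had 0 counts in all 4 libraries. A count of 0 allows up to 3 counts in a library, and covers counting error only. THRB, PGR and NR5A2 had at most 2 counts in a library, and ESR2, ESRRB, NR3C2 and NR0B1 at most 7. None of these 11 genes could be compared between groups at this depth. In a bulk sample, fewer cells that express a gene and less of its RNA per cell cannot be told apart.

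**Figure D3:**
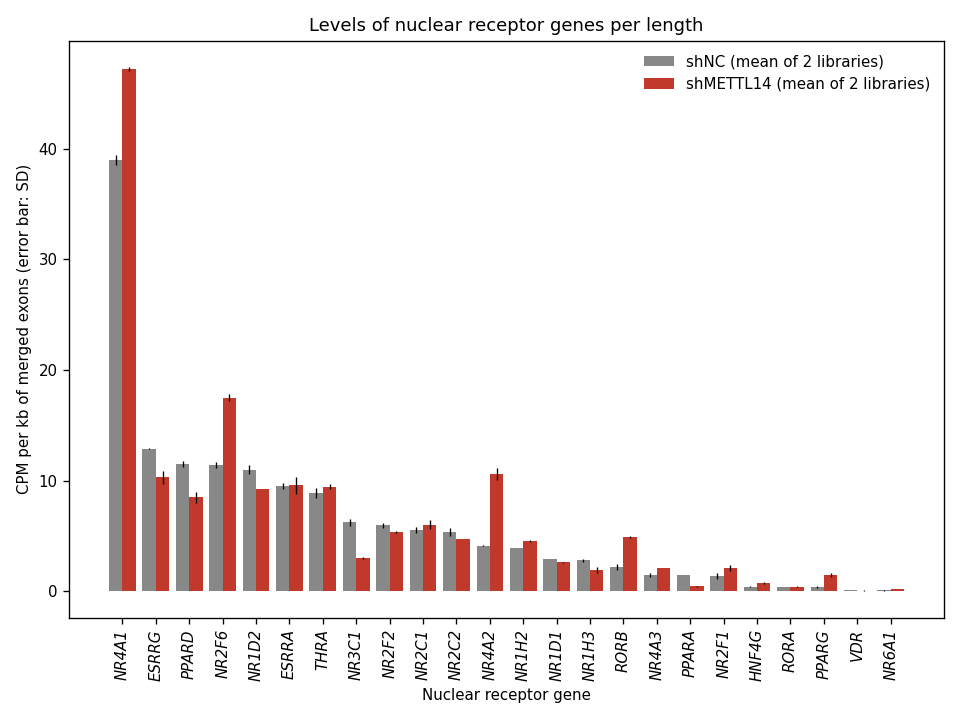
Bars give the mean level of each tested receptor in CPM per kilobase of merged exons (vertical axis, from 0) in shNC (grey) and shMETTL14 (red), with SD over 2 libraries, ordered by the shNC level. NR4A1 stands at 39.0 and 47.2, NR2F6 goes from 11.4 to 17.5, NR4A2 from 4.12 to 10.6 and NR3C1 from 6.22 to 3.02.

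The order of levels per kilobase differed between groups. In shNC, NR4A1 was followed by ESRRG (12.9 CPM per kb), PPARD (11.5), NR2F6 (11.4) and NR1D2 (11), of which PPARD, NR2F6 and NR1D2 were not separable by their spread. In shMETTL14, NR4A1 (47.2) was followed by NR2F6 (17.5), NR4A2 (10.6) and ESRRG (10.3), the last 2 not separable. THRA (8.88 and 9.46) and ESRRA (9.53 and 9.56) stood side by side in both groups. These levels divide by all annotated exons of a gene, so genes with many alternative exons are understated.

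By P-box, the largest class held 19 receptors with the pattern of PPARA, RORB and NR4A2. Of its 17 tested members, 5 were called higher, 6 lower and 6 were not called, with log2 fold changes from -1.72 to 1.94. The lowest value was that of VDR, which is counted among the 6 lower and passed the abundance filter only through shNC. The COUP-TF class, with the NR2F6 pattern, had 2 of 3 called higher. The estrogen-related class, with the ESRRG pattern, had 1 of 2 tested members called lower, and the 3-ketosteroid class had 1 of 1 called lower. Direction was thus mixed inside the class that held most of the receptors.

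METTL14 acts on RNA, and its complex prefers adenosines within words such as GGACT. The word was searched on the transcript strand of 1 coding transcript per gene, and m6A itself was not measured in these libraries. All 24 tested receptors held at least 1 match, as did 91.7% of 12761 tested coding genes. The 8 receptors called higher had a median of 2.5 matches, the 8 called lower 3.5 and the 8 not called 3.5, against 3 over all tested coding genes. Per kilobase of transcript the medians were 0.680, 0.778 and 0.788, and 0.934 over all. The match nearest the stop codon is shown for the receptors that changed by at least 2-fold with ample counts, with the word in capitals inside 21 bases of the transcript strand, as DNA letters.
PPARA: taatctcaGGACTgggaagat
PPARG: atctacaaGGACTtgtactag
RORB: atcagtcaGGACTtgacatga
NR4A2: tagaacatGGACTacacacaa
NR3C1: ttctctggGGACTctgaactt
The PPARA match (chr22:46235594-46235614, plus strand) lay in the 3′ UTR, 224 bases past the stop codon, and the NR4A2 match (chr2:156325483-156325503, minus strand) in the 3′ UTR, 251 bases past it. The PPARG match (chr3:12434125-12434145, plus strand) was the only one of that transcript and lay in the coding sequence at its very end. The RORB (chr9:74642675-74642695, plus strand) and NR3C1 (chr5:143399692-143399712, minus strand) matches were coding as well. PPARA held 8 matches and NR4A1 7, while PPARG, HNF4G and NR4A3 held 1 each, and these include members called in both directions.

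Promoters, from 250 bases before to 50 after each start in RefSeq on GRCh38.p14, were found for 31 of the 35 genes, 78 in all. They were searched on both strands for AGGTCA, the half-site of most receptors, and for TGACG, the core of the element bound by CREB and known from NR4A promoters. These words can overlap by at most 1 letter and neither contains the other. AGGTCA occurred in 13 of the 78 receptor promoters (16.7%) and in 13.8% of all 35116 promoters, and TGACG in 20 (25.6%) and in 24.6% of all. A stretch of a promoter is shown for PPARG, the receptor with the largest increase, and for NR4A3, whose promoter held 4 matches of TGACG, with matches in capitals. The NR4A3 stretch does not stand for its family: both NR4A1 promoters held 0 matches of TGACG, and NR4A2 was not among the genes matched. In NR4A3, CGTCA is TGACG read on the other strand.
PPARG: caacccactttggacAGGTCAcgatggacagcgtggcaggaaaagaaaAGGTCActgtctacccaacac
NR4A3: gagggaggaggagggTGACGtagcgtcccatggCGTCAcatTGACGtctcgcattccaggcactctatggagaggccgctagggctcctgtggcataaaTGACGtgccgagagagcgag
The PPARG stretch (chr3:12287136-12287204, plus strand) lies between 232 and 164 bases before a start and holds AGGTCA on the same strand at both ends. The NR4A3 stretch (chr9:99821761-99821879, plus strand) runs from 124 to 6 bases before a start. A match is a description of the letters, and binding was not measured.

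The genes around the receptors were described from lists written from general knowledge, 152 genes in all. Of the 114 that were tested, 79 were called, 44 higher and 35 lower. Each count below stands beside the 52.5% of all tested genes that were called, 27.2% higher and 25.3% lower. Several lists lay near that share, and no list was tested against other genes. The retinoid X receptors are the partners of the PPARs, liver X receptors, VDR and thyroid hormone receptors. RXRA had 573 and 489 counts in shNC and 294 and 293 in shMETTL14 and fell by 0.84 on the log2 scale (SE 0.0923, edgeR adjusted p = 9.7e-08). RXRB had 965 and 919 against 753 and 751 counts (log2 fold change -0.32, edgeR adjusted p = 0.00029). RXRG had no counts. Both tested partners were therefore lower in shMETTL14.

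Of 25 coregulators, which bridge receptors to chromatin and the transcription machinery, 24 were tested and 19 called (79.2%), 9 higher and 10 lower, with a median log2 fold change of 0.04. PPRC1 rose by 0.60 (edgeR adjusted p = 2e-09) and PPARGC1B by 0.53 (9.3e-05), both of the PGC-1 family of coactivators. Their relative PPARGC1A, chosen after its values were seen, had 22 and 23 counts in shNC and 44 and 51 in shMETTL14, a log2 fold change of 1.08 (edgeR adjusted p = 0.0053, DESeq2 0.0787). NSD1, a histone methyltransferase that binds receptors, had a log2 fold change of -0.55 (1.5e-09) and NCOA3, a steroid receptor coactivator, of -0.41 (3.2e-05). With DESeq2 only 9 coregulators were called. All 8 chaperones of steroid receptors were tested and 7 called, 6 higher and 1 lower. HSP90AA1, STIP1 and FKBP4 rose by 0.24 to 0.25 on the log2 scale, and PTGES3 (p23) fell by 0.44 (edgeR adjusted p = 4.4e-09).

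Of 27 genes of ligand supply, which make, import or break down ligands, 14 were tested and 8 called, 5 higher and 3 lower. SLC16A10, a transporter of thyroid hormone, had 250 and 233 counts in shNC and 173 and 155 in shMETTL14, a log2 fold change of -0.55 (edgeR adjusted p = 0.00061). HSD17B1, which makes estradiol, had 104 and 101 counts in shNC and 187 and 215 in shMETTL14 (log2 fold change 0.98, edgeR adjusted p = 6.3e-06), and HMOX2, which breaks down haem, the ligand of the REV-ERBs, rose by 0.67 (1.3e-08). With DESeq2 the count for ligand supply was 4.

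**Figure D4:**
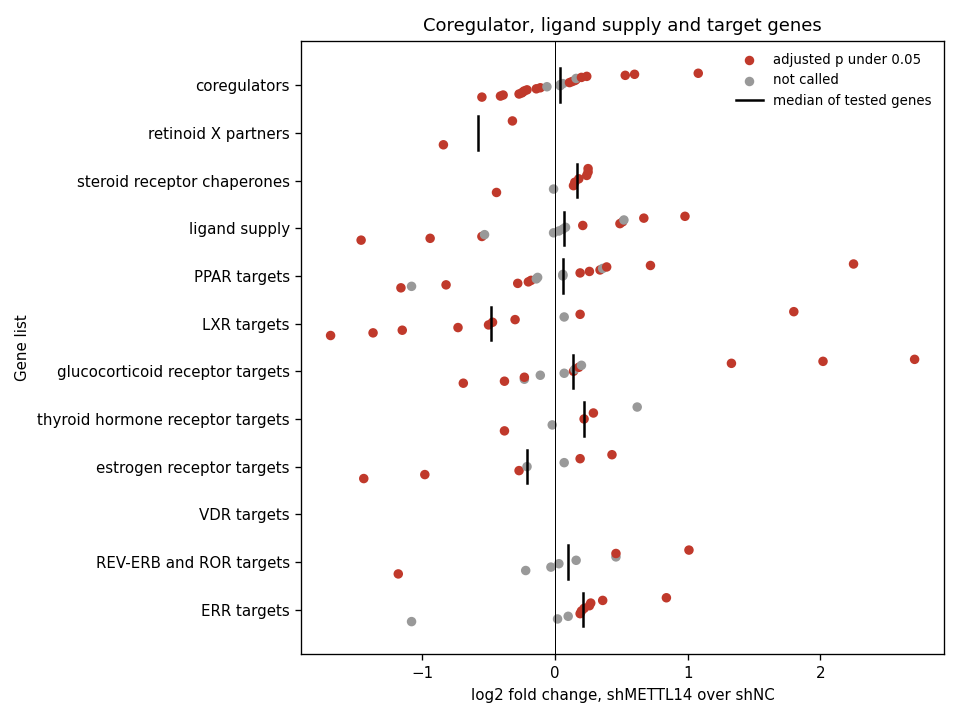
Each dot is the log2 fold change (horizontal axis, shMETTL14 over shNC) of 1 tested gene in the list named on the vertical axis, red where the adjusted p was under 0.05, and black lines mark list medians. Liver X receptor targets have a median of -0.48 and estrogen-related receptor targets of 0.21, and SGK1, at 2.71, lies farthest to the right.

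Known targets were counted next. Of 20 PPAR targets, 17 were tested and 11 called (64.7%), 6 higher and 5 lower. EHHADH of peroxisomal fatty acid oxidation had 290 and 276 counts in shNC and 143 and 109 in shMETTL14 (log2 fold change -1.16, edgeR adjusted p = 1.6e-07). CPT1A, which admits fatty acids to mitochondria, had 1772 and 1822 against 2959 and 2936 counts (log2 fold change 0.72, edgeR adjusted p = 2.3e-11), and the carnitine carrier SLC25A20 had a log2 fold change of 0.39 whose call was lost in 8 of 11 alternatives. ANGPTL4, chosen after its values were seen, had 10 and 11 counts in shNC and 54 and 46 in shMETTL14, a log2 fold change of 2.25 (edgeR adjusted p = 2e-05). The called mitochondrial members of the list included both increases and decreases.

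Of 14 liver X receptor targets, 10 were tested and 9 called (90%), 2 higher and 7 lower. A gene among the 7, with 22 and 25 counts in shNC and 13 and 8 in shMETTL14, passed the abundance filter only through shNC. APOE, a carrier of cholesterol, had 141 and 157 counts in shNC and 55 and 37 in shMETTL14, a log2 fold change of -1.69 (SE 0.199, edgeR adjusted p = 3.1e-07). SMPDL3A had a log2 fold change of -1.37 (8.1e-10) and MYLIP, which degrades the LDL receptor, of -0.73 (0.00031). The cholesterol exporter genes ABCA1, ABCG1, ABCG5 and ABCG8 were too scarce to test. APOE shares exon sequence with AC011481.3 on its own strand, so reads that fit both may have been lost.

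Of 15 glucocorticoid receptor targets, 13 were tested and 8 called (61.5%), 5 higher and 3 lower. SGK1, a kinase of ion transport, had 78 and 85 counts in shNC and 521 and 538 in shMETTL14, a log2 fold change of 2.71 (SE 0.117, edgeR adjusted p = 3.6e-14). TSC22D3 (GILZ) had 1650 and 1629 against 1083 and 932 counts (log2 fold change -0.69, edgeR adjusted p = 2.4e-09), KLF9 fell by 0.38 (0.0002), and ERRFI1 had -0.23, a call lost in 4 alternatives. The 5 increases included the largest of the lists. Another of the 5, with 3 and 6 counts in shNC and 19 and 18 in shMETTL14, passed the abundance filter only through shMETTL14. It therefore had to come out higher. Whether the lower NR3C1 had a part in the changes of these targets was not tested. With DESeq2, 4 of these targets were called, and without shNC library 1, 5.

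Of 12 targets of the estrogen-related receptors, 10 were tested and 7 called, all 7 higher, where 27.2% of all tested genes were called higher. CYCS (cytochrome c) had 3509 and 3299 counts in shNC and 6013 and 6073 in shMETTL14 (log2 fold change 0.84, edgeR adjusted p = 2.1e-13), and IDH3A, TFAM and MFN2 rose by 0.36, 0.27 and 0.26. Of 8 clock targets of REV-ERB and ROR, 8 were tested and 3 called (37.5%). BMAL1, which REV-ERBs repress and RORs activate, had 213 and 198 counts in shNC and 405 and 418 in shMETTL14 (log2 fold change 1.01, edgeR adjusted p = 2.4e-08). PER3 rose by 0.46 (0.00026) and DBP fell by 1.18 (2.3e-06), while CLOCK, NPAS2, CRY1, NFIL3 and PER2 did not pass.

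Of 9 thyroid hormone receptor targets, 5 were tested and 3 called: KLF9, given above, and NRGN (0.29) and HR (0.22), whose calls were lost in 3 and 4 alternatives. Of 11 estrogen receptor targets, 7 were tested and 5 called, 2 higher and 3 lower, though ESR1 had no counts in these cells. RERG, an estrogen-regulated growth inhibitor, had 450 and 465 counts in shNC and 160 and 174 in shMETTL14 (log2 fold change -1.44, edgeR adjusted p = 1.9e-10), IGFBP4 fell by 0.98 (4e-09), XBP1 fell by 0.27 (1.1e-05), and MYB, at 0.43, lost its call in 3 alternatives. Without shNC library 2, or without shMETTL14 library 2, 3 estrogen receptor targets were called. None of the 7 vitamin D receptor targets was abundant enough to test. DBP, TSC22D3, HMOX2, RXRB, PER3, NCOA3, HSP90AA1, CLOCK and IDH3A share exon sequence with a coding gene on the opposite strand, and EHHADH, FKBP4, HSD17B1, NSD1, SLC16A10, MYB, NRGN, ERRFI1, ANGPTL4, NPAS2, CRY1, PER2, DBH and MYCN with a noncoding gene or pseudogene there, so their counts carry the same uncertainty as NR1D1 and THRA.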

How the data were processed

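RNA from 4 libraries was sequenced as paired ends (150 bases). The authors deposited raw counts of reads per Ensembl gene ID, with no normalization. Per the submitters' processing notes, the tools were HISAT2 2.1.0, StringTie 1.3.6, HTSeq 0.13.5 and edgeR, on GRCh38. The annotation release and the strand setting are not given in the sources used here. Lines naming no gene (19.1% to 19.9% of counts) were left out.

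Differential expression was fitted to these counts in edgeR 4.0.16 (R 4.3.3) with TMM scaling, group as the only term, quasi-likelihood F-tests and filterByExpr defaults (minimum count 10, minimum total 15). The Benjamini-Hochberg method was applied over 16309 genes, with calls at an adjusted p under 0.05. Standard errors were derived from the F statistic, and the procedure was tested on simulated data. For any single gene, the smallest two-sided p of an exact permutation test on this design is 0.333. CPM values are after TMM scaling, and the biological coefficient of variation was 3.45%. The mean chi-square per gene was 2.66 and 2.21 within groups, against 31 and 30.5 between them. DESeq2 1.42.0, other scalings and filters, a replicate block and each library left out were alternatives.

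Gene positions, exon lengths and coding bases came from GENCODE 29 on GRCh38, and promoters from RefSeq on GRCh38.p14. P-boxes were grouped by the amino acids that the codons shown in capitals encode. These were translated from the coding bases, in place of protein sequences. Beyond the 35 receptors, METTL14 and the retinoid X receptors, the 4 called genes of each list with the largest change were named, provided that their groups did not overlap and their mean log2 CPM reached 2. The called markers of other cell types were named outside this rule. The members and lists were chosen with earlier results of these data known. Levels of whole lists are described by counts, with no test. Some genes that this rule picked are not reported here.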

Additional observations from a re-analysis of the deposited data

How the results depend on the processing

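Across 11 alternatives, 246 of 263 comparisons of single receptors kept their direction and call, 14 lost the call, 3 gained it and 0 reversed among called genes. The changes fell on 7 receptors (VDR, HNF4G, NR2C2, NR2F1, NR4A3, NR2F2 and NR6A1). PPARA (-1.78 to -1.53), PPARG (1.76 to 2.12), RORB (1.05 to 1.3), NR4A2 (1.3 to 1.42) and NR3C1 (-1.11 to -1) were called in each. The sign of the uncalled changes of RORA and ESRRA differed between alternatives. Receptors called numbered 16, with 11 under DESeq2 (5 higher, 6 lower), 15 with no filter, 17 with upper quartile or library size scaling, and 13 to 15 with a library left out.

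DESeq2 called 5546 genes in place of 8561, and 913 in place of 1433 at 2-fold or more. That last count was 930 with at least 10 counts in every library, 3071 at a 1.5-fold limit and 1219 to 1308 with a library left out. Listed genes called fell from 79 to 52 with DESeq2, where 1 thyroid hormone receptor target was called, as with upper quartile scaling. Without shNC library 1 or shMETTL14 library 2, 2 markers of other cell types were called. The median receptor change of 0.063 became -0.005 with upper quartile scaling, and ran from 0.004 to 0.101 with a library left out, lowest without shMETTL14 library 2. Upper quartile scaling shifted all genes by -0.068 and split calls into 3550 higher and 4961 lower, beside 4438 and 4123. Fits with a library left out assume that the lone library varies like the other group.

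Replicate numbers did not pair the libraries: deviations of same-numbered libraries correlated at r = 0.00483 (rho = 0.0233, across genes). When this number entered the fit as a replicate block, 8926 genes, 16 receptors and 83 listed genes were called and METTL14 was at -1.26. Of 484 comparisons of 44 named list genes, 461 were unchanged in direction and call, 23 lost the call and 0 reversed. Depth limited the receptors under about 10 counts per library, VDR among them.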
